A study of Homo sapiens with 9 samples.

Results

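The genes described here are 34 members of the ATF4 and unfolded protein stress response, chosen by symbol from a fixed list, out of 30672 genes tested. They fall into an ATF4 amino acid arm of 19 genes and an endoplasmic reticulum (ER) chaperone arm of 15 genes. All were measured by 1 row of the table each, with the cytosolic tRNA synthetases under their older names (WARS, SARS, GARS, MARS, NARS). The data are 9 Illumina expression arrays of HCC4006, an established lung adenocarcinoma cell line with a mutant epidermal growth factor receptor (EGFR), in 3 groups of 3. Parental cells had no listed treatment. Resistant cells had been kept for 6 months in rising amounts of gefitinib, a small molecule that inhibits the EGFR kinase. Inhibitor cells had received gefitinib for 6 months in combination with SB431542, which blocks the kinase of the TGFβ type I receptor. No group had SB431542 alone and none was labelled as cultured for the same time without gefitinib, so compound, selection and time in culture cannot be told apart. The labels do not say whether replicates came from separate cultures, so p-values reflect only array-to-array spread, which could be technical. Nor do they state if gefitinib or SB431542 was still present at harvest. The design text names the compounds in combination, whereas the sample labels call these cells resistant and inhibitor treated, so whether SB431542 was given during or after selection is not settled.

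ATF4 is the transcription factor of the integrated stress response. Kinases that sense lack of amino acids, ER stress, viral RNA or lack of heme phosphorylate the initiation factor eIF2, which slows translation in general while ATF4 mRNA is translated more. ATF4 then raises genes for amino acid synthesis and transport, tRNA charging and feedback control. The unfolded protein response of the ER has further branches: the sensor IRE1 (encoded by ERN1) splices XBP1 mRNA, and ATF6 is cut in the Golgi to release a transcription factor. Both raise chaperones, oxidoreductases and genes of ER-associated degradation. Control of ATF4, XBP1 and ATF6 activity is therefore largely after transcription, and the arrays measured the mRNA level only, with 1 value per gene and no separation of spliced from unspliced XBP1.

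The windows below are shown because they hold known regulatory elements of the arms near the start of the gene. RefSeq promoters of GRCh38.p14, from 250 bases before to 50 after the transcription start, were present for 17 of 19 genes of the ATF4 arm and 14 of 15 of the ER arm. Both strands were searched for the C/EBP-ATF response element (CARE, TGATGNAA), the ER stress response element (ERSE, CCAAT and, 9 bases on, CCACG), ERSE-II and the core of the unfolded protein response element (UPRE, TGACGTGG). CARE stood in 4 promoters of the ATF4 arm (ASNS, CHAC1, MARS and NARS) and 1 of the ER arm (HERPUD1), against 3.67% of 27305 promoters of the same length. ERSE stood in none of the ATF4 arm and in 4 of the ER arm (HSPA5, HSP90B1, XBP1 and CALR), against 0.0806% of promoters. ERSE-II stood in HERPUD1 and SDF2L1 (0.0549% of promoters), and the UPRE core in no member (0.795%). No matches overlapped. The windows are written 5′ to 3′ on the gene's strand, with the matches in capitals. They lie at chr7:97872439-97872506 (minus strand, ASNS), chr9:125241361-125241439 (minus, HSPA5), chr12:103930186-103930369 (plus, HSP90B1, with a match on each strand), chr22:28800573-28800651 (minus, XBP1), chr19:12938359-12938432 (plus, CALR), chr16:56931936-56932065 (plus, HERPUD1, CARE and then ERSE-II) and chr22:21642084-21642154 (plus, SDF2L1). A match is a string of letters and does not show that a factor bound there. The members were listed as genes of this response and the elements are known ones, so matches were likely beforehand. The shares describe the promoters and are not a test.
ASNS: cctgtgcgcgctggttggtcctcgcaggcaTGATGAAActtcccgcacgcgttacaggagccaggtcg
HSPA5: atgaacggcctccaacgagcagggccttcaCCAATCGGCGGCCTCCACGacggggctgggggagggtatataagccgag
HSP90B1: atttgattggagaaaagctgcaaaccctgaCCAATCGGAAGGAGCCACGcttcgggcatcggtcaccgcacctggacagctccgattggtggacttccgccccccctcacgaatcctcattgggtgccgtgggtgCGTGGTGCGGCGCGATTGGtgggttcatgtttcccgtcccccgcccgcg
XBP1: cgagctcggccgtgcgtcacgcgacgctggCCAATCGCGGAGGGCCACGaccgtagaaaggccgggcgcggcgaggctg
CALR: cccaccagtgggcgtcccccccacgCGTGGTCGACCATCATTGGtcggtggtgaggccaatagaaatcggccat
HERPUD1: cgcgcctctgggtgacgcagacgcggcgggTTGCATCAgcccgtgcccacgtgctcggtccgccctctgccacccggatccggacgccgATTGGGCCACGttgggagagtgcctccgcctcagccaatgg
SDF2L1: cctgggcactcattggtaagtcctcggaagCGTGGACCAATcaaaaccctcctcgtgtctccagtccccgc

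The deposited intensities held the array background. A level of 92.6, under which 95% of the values of 377 olfactory receptor rows lay, was used as a stand-in for it. The mean of 32 of 34 members exceeded that level. A change of a gene close to this level can be understated. Arrays of a group correlated at 0.996 to 0.998 over all genes, apart from inhibitor replicate 2, at 0.990 to 0.991 with its group, and counts are therefore given with and without that array. The group means of all 8 epithelial and lung markers lay above background, though NAPSA was at 90.5 on resistant replicate 1 and 88.4 on inhibitor replicate 1, under the stand-in. Their summed intensity was 14987 to 16891 on parental, 6980 to 7167 on resistant and 17941 to 22474 on inhibitor arrays. In resistant against parental cells 6 of the 8 fell and the keratin genes KRT8 and KRT18 rose, and in inhibitor against resistant cells 6 rose and none fell (7 passed at an unadjusted p under 0.05). KRT8 had means of 721, 1170.2 and 2025 in parental, resistant and inhibitor cells, KRT18 of 317, 474 and 789, and NAPSA of 1002, 98.8 and 94.2. The leukocyte markers PTPRC and CD3E were within background in every group. The myeloid markers CD14, CD68 and LYZ were above it, with means of 536, 1034 and 104 in parental, 178, 1489 and 109 in resistant and 164, 1142 and 110.3 in inhibitor cells. Of 5 fibroblast markers, DCN, PDGFRA and PDGFRB were within background in every group. COL1A1 was just above it in every group, at 99.5, 107 and 111. LUM, in the same list, was at 85.3 in parental, 222 in resistant and 90.1 in inhibitor cells, and the summed level of the list was 441 to 446, 585 to 600 and 452 to 472. The 4 endothelial markers summed to 341 to 367 over all arrays. The part of these markers in the changes below was not tested, and a change in every cell cannot be told apart from a change in the share of cells.

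In resistant against parental cells, 11 genes of the ATF4 arm fell, 2 rose and 6 did not pass the test. Those that fell were ATF4 itself, the ATF4 targets ASNS, TRIB3 and DDIT4, 4 genes of serine and one-carbon metabolism, and the synthetases WARS, GARS and MARS. The pair that rose were CEBPB and PPP1R15A. The falls make up 57.9% of the arm. Over all genes 10.2% were called lower and 10.2% higher, and among the 14945 genes with a mean above background 19.6% were lower and 19.8% higher. The median change of the arm was -0.44 on the log2 scale, beside 0.0045 over all genes. Calls are from limma at a Benjamini-Hochberg adjusted p under 0.05 over all genes. Changes are given on the log2 scale of intensity with their SE.

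ATF4 mRNA was at 6012, 6001 and 6066 on the parental arrays, 5097, 4832 and 5183 on the resistant arrays and 5737, 5652 and 6044 on the inhibitor arrays. All resistant arrays lay below all others, and the inhibitor and parental ranges overlapped. The change from parental to resistant was -0.26 ± 0.06 (95% interval -0.39 to -0.13, adjusted p = 0.00417). These levels lie around 5549, the 99th percentile of the intensities, a range in which the scale may be compressed. From resistant to inhibitor cells ATF4 rose by 0.21 ± 0.06 (adjusted p = 0.0252). Leaving out resistant replicate 1 (adjusted p = 0.0587) or 2 (0.117), or inhibitor replicate 1 (0.0511) or 3 (0.0992), ended this call, as did the robust variance prior (0.0781).

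The other transcription factor genes of the arm had patterns of their own. DDIT3 encodes CHOP, which ATF4 raises in lasting stress and which promotes cell death. It was at 215, 219 and 182 on the parental, 197, 206 and 198 on the resistant and 189, 168 and 191 on the inhibitor arrays. The parental range held the resistant arrays and overlapped the inhibitor arrays, while all inhibitor arrays lay below all resistant arrays. No comparison passed (adjusted p = 0.881, 0.386 and 0.272 for resistant against parental, inhibitor against resistant and inhibitor against parental). The 95% interval of the resistant change was -0.22 to 0.15. With background subtracted this change was -0.05 ± 0.16, a wider spread. CEBPB, a leucine zipper factor that can pair with ATF4, was at 1028, 1020 and 952 on the parental and 1637, 1558 and 1673 on the resistant arrays, a rise of 0.70 ± 0.12 (adjusted p = 0.000142). On the inhibitor arrays CEBPB was at 1239, 976 and 1289, lower than in resistant cells by -0.48 ± 0.12 (adjusted p = 0.00561). Against parental cells its difference was 0.21 (adjusted p = 0.284), and 0.34 without inhibitor replicate 2 (adjusted p = 0.0142).

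Among the stress effectors, DDIT4 and TRIB3 had the lower levels in resistant cells. DDIT4, which encodes the mTORC1 inhibitor REDD1, was at 1508, 1808 and 1918 on the parental, 541, 699 and 681 on the resistant and 907, 1091 and 974 on the inhibitor arrays. The 3 groups did not overlap, with parental highest and resistant lowest. DDIT4 fell by 1.45 ± 0.13 in resistant cells (2.73-fold, adjusted p = 5.88e-08). It was 0.63 ± 0.13 higher in inhibitor than in resistant cells (adjusted p = 0.00147) and remained below parental (-0.81 ± 0.13, adjusted p = 0.00015). TRIB3 encodes a pseudokinase that binds ATF4 and CHOP and dampens their action. It was at 2151, 2264 and 2171 on the parental, 965, 872 and 823 on the resistant and 1855, 1363 and 1809 on the inhibitor arrays. Its 3 groups were again separate, and inhibitor replicate 2 was the lowest of its group. The change from parental to resistant was -1.31 ± 0.12 (2.48-fold, adjusted p = 8.44e-08), and from resistant to inhibitor 0.91 ± 0.12 (adjusted p = 1.51e-05). Inhibitor against parental gave -0.40 (adjusted p = 0.0281). It no longer passed on omission of parental replicate 1 (0.0587), 2 (0.105) or 3 (0.0735) or of inhibitor replicate 2 (0.0716, with a change of -0.26), with background subtracted (0.142) or with only the compared groups in the fit (0.0542).

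PPP1R15A moved the other way. It encodes GADD34, the subunit that directs protein phosphatase 1 to eIF2 and so ends the translational block. Its level was 423, 427 and 332 on the parental, 1014, 983 and 978 on the resistant and 485, 351 and 449 on the inhibitor arrays. Every resistant array was above every other array, and the inhibitor and parental ranges overlapped. PPP1R15A rose by 1.34 ± 0.13 in resistant cells (2.53-fold, adjusted p = 2.49e-07) and was -1.22 ± 0.13 lower in inhibitor than in resistant cells (adjusted p = 1.25e-06). The remaining effectors CHAC1, which degrades glutathione, and SESN2, which holds back mTORC1 on lack of amino acids, had group means of 85.2 to 93.4 and 85.9 to 93.0. Both were at or close to background, and neither passed in any comparison. A rise from resistant to inhibitor passed for CHAC1 without inhibitor replicate 1 or 3 (adjusted p = 0.0443 and 0.0459) and for SESN2 without inhibitor replicate 3 (0.0287).

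The genes of amino acid synthesis and one-carbon metabolism were called lower in resistant cells, apart from PSAT1, which did not pass. ASNS, the asparagine synthetase gene whose CARE is printed above, was at 1444, 1578 and 1436 on the parental, 913, 921 and 814 on the resistant and 1072, 825 and 1088 on the inhibitor arrays. It was lower in both treated groups than on any parental array, by -0.75 ± 0.12 in resistant (adjusted p = 0.000104) and -0.59 ± 0.12 in inhibitor cells (adjusted p = 0.00189). The inhibitor and resistant ranges of ASNS overlapped (0.16, adjusted p = 0.459), and without inhibitor replicate 2 the rise between them was 0.29 (adjusted p = 0.0452). PHGDH encodes the first enzyme of serine synthesis from glucose. It fell from 2382, 2617 and 2446 in parental to 1687, 1646 and 1645 in resistant cells (-0.58 ± 0.16, adjusted p = 0.0109). It ended at the threshold when parental replicate 2 was left out, and did not pass when the variance prior had no intensity trend (adjusted p = 0.0580) or background was subtracted (0.152).

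On the inhibitor arrays PHGDH was at 1881, 1165 and 2184, and PHGDH was the 1 member for which inhibitor replicate 2 stood more than 0.5 on the log2 scale from the other arrays of its group. PHGDH was lower than in parental cells (-0.56 ± 0.16, adjusted p = 0.0194). The call failed when parental replicate 2 (0.0819) or 3 (0.0585) was left out and in 3 other settings (adjusted p of 0.0563 to 0.158). Without inhibitor replicate 2, PHGDH was below parental by -0.29 (adjusted p = 0.0300) and above resistant by 0.29 (adjusted p = 0.0299), where all arrays gave 0.02 (0.956).

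PSAT1, the aminotransferase of the second step of serine synthesis, did not pass: its group means were 869, 756 and 746 in parental, resistant and inhibitor cells. PSPH, the phosphatase of the last step, fell from 917 ± 80.5 to 640.4 ± 43.9 (SD, n = 3), by -0.52 ± 0.11 (adjusted p = 0.00203). SHMT2 and MTHFD2 carry one-carbon units from serine in mitochondria. SHMT2 fell from 1473 ± 32.7 to 1021 ± 100.1 in resistant cells (-0.53 ± 0.11, adjusted p = 0.000843) and was at 1425 ± 51.7 in inhibitor cells, 0.48 ± 0.11 above resistant (adjusted p = 0.0026) and overlapping parental. MTHFD2 fell from 1617 ± 149 to 1092 ± 139.5 (-0.57 ± 0.12, adjusted p = 0.0013) and stood at 1175 ± 68.1 in inhibitor cells, where the change from resistant was 0.11 (adjusted p = 0.638). SHMT2 was thus the 1 gene of serine and one-carbon metabolism called in inhibitor against resistant cells with all arrays in the fit.

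The 5 synthetases, which charge tRNAs with tryptophan, glycine, methionine, serine and asparagine, split into 3 that moved and 2 that did not pass in any comparison. WARS was at 1152, 1408 and 1115 on the parental, 633, 672 and 485 on the resistant and 944, 876 and 874 on the inhibitor arrays, with no overlap between groups. It fell by 1.04 ± 0.13 in resistant cells (2.06-fold, adjusted p = 6.71e-06) and was 0.60 ± 0.13 higher in inhibitor than in resistant cells (adjusted p = 0.00291, and 0.0521 with background subtracted). GARS fell from 3983 ± 219 to 2892 ± 189 (-0.46 ± 0.10, adjusted p = 0.00135) and was at 4036 ± 606 in inhibitor cells, 0.47 ± 0.10 above resistant (adjusted p = 0.00145). MARS fell from 718 ± 51.7 to 529.9 ± 15.9 (-0.44 ± 0.11, adjusted p = 0.00777) and was at 877 ± 76.3 in inhibitor cells, 0.72 ± 0.11 above resistant (adjusted p = 9.46e-05). Every inhibitor array of MARS lay above every parental array, with a difference of 0.29 that did not pass (adjusted p = 0.106) except with dim genes left out (0.0452) or without an intensity trend (0.0224). SARS, at means of 722, 740.1 and 758, and NARS, at 2958, 2955 and 2668, overlapped in all groups. CARE matches lay in the promoters of both MARS, which moved, and NARS, which did not pass. Neither lay wholly upstream: the MARS match began at base -4 and ran past the transcription start. The NARS match began at base 15 after the start.

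**Figure D1:**
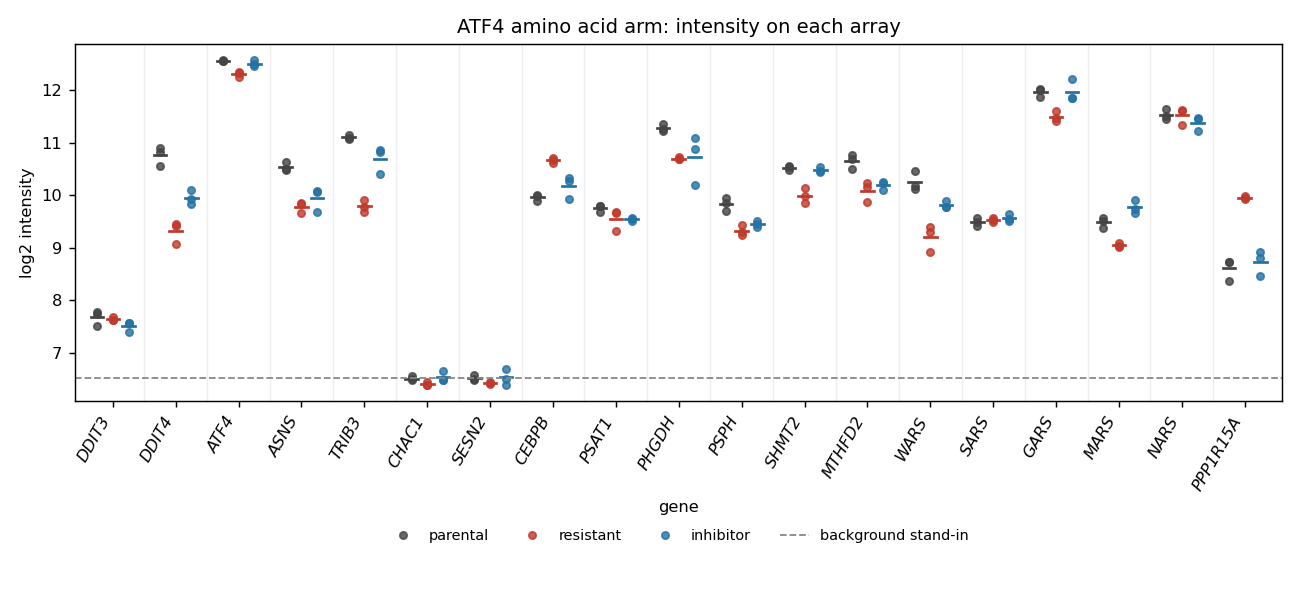
Log2 intensity of the 19 genes of the ATF4 arm on each array (points) with group means (bars), for parental, resistant and inhibitor cells; the dashed line is the background stand-in of 92.6. The resistant arrays sit lowest for DDIT4, TRIB3 and WARS and highest for CEBPB and PPP1R15A, and CHAC1 and SESN2 lie at the dashed line.

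In the ER arm of resistant against parental cells, 5 of 15 genes fell, none rose and 10 did not pass. At an unadjusted p under 0.05 there were 7. The genes that fell were the transcription factor XBP1, the degradation genes HERPUD1 and SEL1L, the co-chaperone DNAJB9 and ERP27. The chaperones HSPA5, HSP90B1 and CALR and the disulfide isomerases PDIA4 and PDIA6 did not pass. The falls make up 33.3% of the arm, and its median change was -0.05, against the 10.2% of all genes and 19.6% of genes above background given for this comparison.

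The sensor genes ATF6 and ERN1 showed small differences at the mRNA level. The gene of a further ER sensor, PERK (EIF2AK3), is given below with the eIF2 kinases and fell by 0.49 in resistant cells. ATF6 was at 677, 736 and 669 on the parental, 851, 895 and 797 on the resistant and 878, 724 and 842 on the inhibitor arrays. All resistant arrays lay above all parental arrays, but the difference of 0.29 ± 0.11 did not pass (adjusted p = 0.0900). It passed without inhibitor replicate 2 (adjusted p = 0.0202), which enters this comparison only through the shared spread, and in 4 other settings (0.0245 to 0.0467). Without that array ATF6 was also 0.31 above parental in inhibitor cells (adjusted p = 0.0379, against 0.237 with it). ERN1 was at 114, 109 and 105 on the parental, 103, 105 and 111 on the resistant and 96.1, 95.8 and 96.0 on the inhibitor arrays, all close to background. It was lower in inhibitor than in parental cells by -0.19 ± 0.05 (adjusted p = 0.012), which failed when parental replicate 1 was left out (0.0691) and with background subtracted (-0.59, 0.137). In that last setting all inhibitor values of ERN1 were held at the floor of 16 set for subtracted values. From resistant to inhibitor cells the difference in ERN1 was -0.15 (adjusted p = 0.0532), and it passed without parental replicate 1 (0.0492), with dim genes left out (0.0266) and with array weights (0.0470).

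XBP1 encodes the transcription factor that IRE1 activates by splicing, and its own promoter held an ERSE match. Its level was 2585, 2608 and 2853 on the parental, 1290.1, 1394 and 1407 on the resistant and 1806, 1968 and 1715 on the inhibitor arrays. The groups did not overlap, with parental highest and resistant lowest. XBP1 fell by 0.98 ± 0.10 in resistant cells (1.97-fold, adjusted p = 2.55e-07). It was 0.42 ± 0.10 higher in inhibitor than in resistant cells (adjusted p = 0.00398) and -0.55 ± 0.10 below parental (adjusted p = 0.000413). All 3 calls on XBP1 held under every one of 19 alternative settings.

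The chaperones that share the ERSE with XBP1 had other patterns. HSPA5 encodes BiP, the ER chaperone whose rise is the usual readout of an unfolded protein response. It was at 269.5, 282 and 254 on the parental, 291, 265 and 261 on the resistant and 278, 224 and 315 on the inhibitor arrays, and the 3 groups overlapped. Its change was 0.02 in resistant against parental cells (95% interval -0.22 to 0.26, adjusted p = 0.944) and 0.01 in inhibitor against parental cells (-0.23 to 0.25, adjusted p = 0.983). With background subtracted these were 0.03 ± 0.19 and 0.002 ± 0.19, a wider spread. The HSPA5 row, at 224 to 315 on all arrays, was dim beside that of HSP90B1. How well it reports its transcript was not tested. HSP90B1, which encodes the ER form of HSP90, GRP94, was at 5433 ± 499, 4773 ± 89.7 and 5936 ± 158 in parental, resistant and inhibitor cells, around the 99th percentile of values. It was 0.31 ± 0.07 higher in inhibitor than in resistant cells (adjusted p = 0.00334). Against parental, the resistant difference of -0.18 ± 0.07 did not pass (adjusted p = 0.0815) but did so without parental replicate 1 (-0.25, 0.0176) or inhibitor replicate 2 (0.0428), with array weights (0.0291) and with cyclic loess scaling (0.0387). CALR, the lectin chaperone calreticulin, had means of 955, 1073 and 1149 and passed in no comparison.

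Genes of co-chaperones and folding enzymes mostly did not pass. DNAJB9 (ERdj4), a BiP co-chaperone, was at 390.5, 412 and 353 on the parental and 305, 276 and 247 on the resistant arrays, which did not overlap (-0.48 ± 0.11, adjusted p = 0.00275). DNAJC3, SDF2L1, PDIA4 and PDIA6, which encode another BiP co-chaperone, a partner of ER DNAJ proteins and 2 disulfide isomerases, passed in no comparison with all arrays in the fit. PDIA4 was at 165, 159 and 174 on the resistant and 191, 239 and 185 on the inhibitor arrays; this difference of 0.29 (adjusted p = 0.0779) passed without parental replicate 3 (0.0457) or inhibitor replicate 3 (0.0453). Levels of DNAJC3 were 105 to 116 on all arrays, close to background.

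ERP27 had the largest change of the 34 genes. It encodes a member of the disulfide isomerase family that lacks the redox-active site and can bind the isomerase PDIA3. Its level was 1366, 1241 and 1303 on the parental, 148, 154 and 162 on the resistant and 1188, 1144 and 1190.2 on the inhibitor arrays. The resistant arrays stood apart from all others, and every inhibitor array was below every parental array. ERP27 fell by 3.08 ± 0.11 in resistant cells (8.43-fold, adjusted p = 6.68e-14), rank 23 among the falls of all 30672 genes. It was 2.93 ± 0.11 higher in inhibitor than in resistant cells (7.6-fold, adjusted p = 3.23e-13), rank 3 among the rises. The inhibitor difference from parental was -0.15 (adjusted p = 0.45). With background subtracted the changes were -4.14 and 3.98.

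The degradation genes HERPUD1 and SEL1L fell in resistant cells, and EDEM1 was higher in inhibitor cells than in both other groups. HERPUD1, whose promoter held both a CARE and an ERSE-II match, encodes a membrane protein of the ER degradation complex. It fell from 585 ± 22.4 to 409.7 ± 16.8 (-0.51 ± 0.10, adjusted p = 0.000907) and stood at 434 ± 13.2 in inhibitor cells, below parental (-0.43 ± 0.10, adjusted p = 0.00612) and overlapping resistant. SEL1L, the adaptor of the ubiquitin ligase HRD1, fell from 127 ± 5.35 to 99.1 ± 6.69 (-0.36 ± 0.06, adjusted p = 8.14e-05) and was at 104 ± 2.8 in inhibitor cells (-0.30 against parental, adjusted p = 0.00103). SEL1L lies near background, and with background subtracted these changes became -1.30 and -1.18. Their size depends on the floor of 16 set for subtracted values, which some resistant and inhibitor values of SEL1L reached. EDEM1 encodes a lectin that directs misfolded glycoproteins to degradation. It was at 229, 239.7 and 247 on the parental, 229, 218 and 247 on the resistant and 339.8, 386 and 332 on the inhibitor arrays. Parental and resistant arrays overlapped and all inhibitor arrays lay above them, by 0.61 ± 0.10 against resistant (adjusted p = 0.000104) and 0.56 ± 0.10 against parental (adjusted p = 0.000285). EDEM1 was the 1 member called higher in inhibitor than in parental cells.

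**Figure D2:**
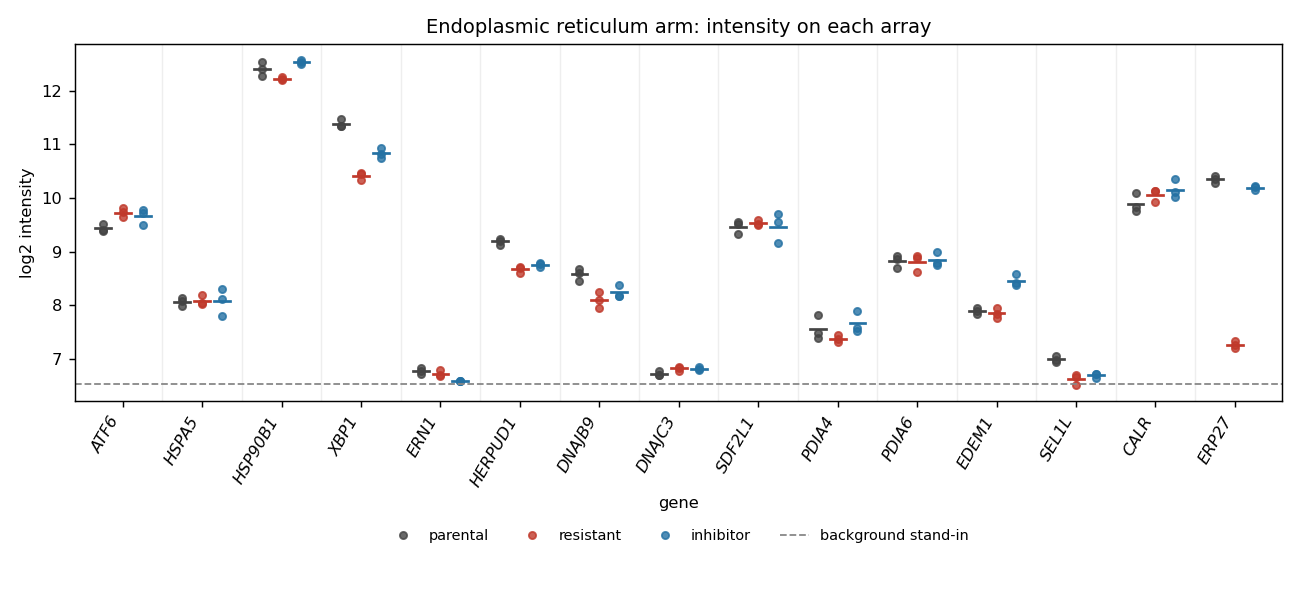
Log2 intensity of the 15 genes of the ER arm on each array (points) with group means (bars), for parental, resistant and inhibitor cells; the dashed line is the background stand-in of 92.6. ERP27 drops from 1303 to 155 in the resistant group and is at 1174 in the inhibitor group, the HSPA5 groups overlap, and EDEM1 is highest on the inhibitor arrays.

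From resistant to inhibitor cells, 7 genes of the ATF4 arm rose (DDIT4, ATF4, TRIB3, SHMT2, WARS, GARS and MARS), 2 fell (CEBPB and PPP1R15A) and 10 did not pass. In the ER arm 4 rose (HSP90B1, XBP1, EDEM1 and ERP27), none fell and 11 did not pass. Median changes were 0.13 and 0.08, beside -0.00078 over all genes. The rises are 36.8% and 26.7% of the arms, beside 8.68% of all genes called higher and 8.81% lower, and 16.8% and 17.1% of genes above background. Without inhibitor replicate 2, 9 rose and 2 fell in the ATF4 arm, and 4 rose in the ER arm. At an unadjusted p under 0.05, 10 and 6 genes passed. This comparison shares the resistant arrays with the previous one, so that opposite signs in both are not independent.

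In inhibitor against parental cells, 7 genes of the ATF4 arm were lower (DDIT4, ASNS, TRIB3, PHGDH, PSPH, MTHFD2 and WARS) and none was higher. At an unadjusted p under 0.05, 8 passed. In the ER arm 5 were lower (XBP1, ERN1, HERPUD1, DNAJB9 and SEL1L) and 1, EDEM1, was higher. Median changes were -0.15 and 0.01. The lower genes are 36.8% and 33.3% of the arms, beside 7.13% of all genes higher and 7.79% lower, and 14.0% and 15.2% of genes above background. Of these, PSPH (-0.38, adjusted p = 0.0256), MTHFD2 (-0.46, 0.0109), WARS (-0.44, 0.0299) and DNAJB9 (-0.34, 0.0406) were lost without 1 or more single arrays. PSPH was lost without parental replicate 1 (0.0666) or 2 (0.135) or inhibitor replicate 3 (0.0778). MTHFD2 was lost without parental replicate 2 (0.0509) or 3 (0.0652), and WARS without parental replicate 2 (0.182) or inhibitor replicate 3 (0.0786). DNAJB9 was lost without parental replicate 1 (0.102) or 2 (0.171), resistant replicate 2 (0.0621) or inhibitor replicate 1 (0.141) or 2 (0.0515). With background subtracted MTHFD2 (0.0671), WARS (0.158) and DNAJB9 (0.138) did not pass, nor did PSPH (0.0696) and DNAJB9 (0.0803) with only the compared groups in the fit. The count of lower genes in the ATF4 arm was 2 without parental replicate 2 and 4 without parental replicate 3, and that in the ER arm was 3 without parental replicate 1. Without inhibitor replicate 2, 6 and 4 genes were lower, and CEBPB in the ATF4 arm and EDEM1 and ATF6 in the ER arm were higher. DDIT4, ASNS, XBP1, HERPUD1 and SEL1L kept their call under all 19 alternatives.

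**Figure D3:**
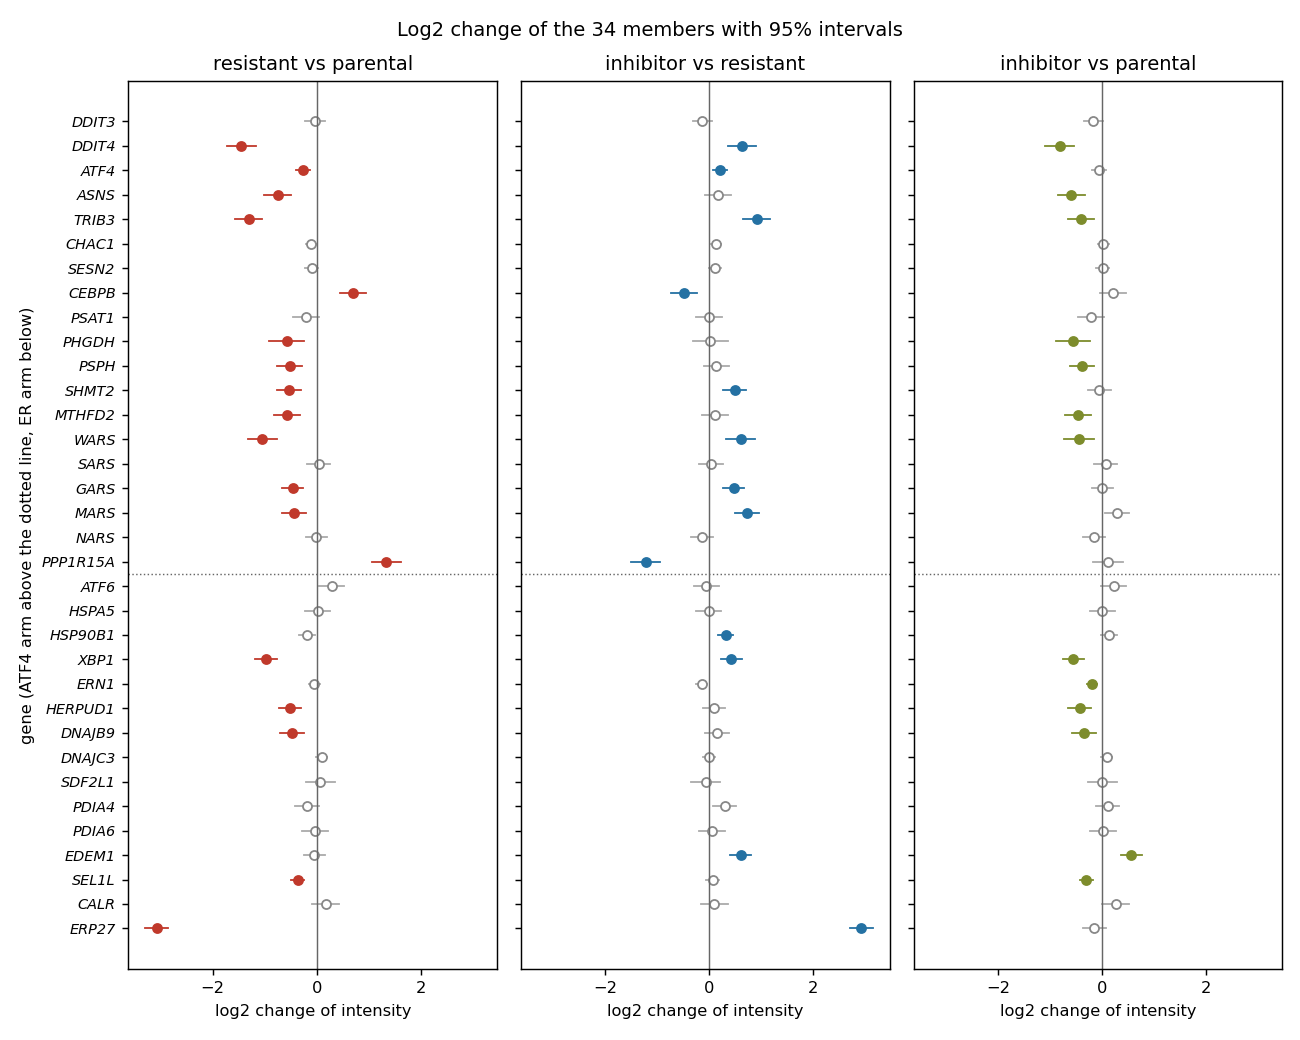
Log2 change of intensity of each of the 34 genes with its 95% interval in the 3 comparisons; filled points passed at an adjusted p under 0.05 and open points did not. In resistant against parental cells 16 points are filled left of 0 and 2 right of it, and ERP27 lies farthest from 0 in both comparisons with the resistant group.

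Other genes of the pathway, taken from 6 lists, did not all follow the members. Of 26 other ATF4 targets, 11 fell (42.3%) and 7 rose (26.9%) in resistant against parental cells (median -0.21), beside 19.6% lower and 19.8% higher among genes above background. NUPR1, a stress-induced chromatin protein gene, fell from 645 ± 43.5 to 212 ± 18.9 (-1.61), and GDF15, a secreted stress cytokine gene, from 909 ± 69.3 to 304 ± 13.8 (-1.58). CBS, an enzyme gene of cysteine synthesis, fell by 1.17, and STC2, a secreted glycoprotein gene, rose from 921 ± 44.5 to 2133 ± 191 (1.21). In inhibitor against resistant cells 6 rose and 6 fell (23.1% each, median 0.01), beside 16.8% higher and 17.1% lower among genes above background. Among them were CBS (0.74) and STC2 (-1.04). In inhibitor against parental cells 9 were lower (34.6%) and 3 higher (11.5%), beside 15.2% and 14.0% of genes above background (list median -0.18). There NUPR1 was at 149.5 ± 8.45 (-2.11) and GDF15 at 291 ± 11.3 (-1.64), with VLDLR higher (0.80) and CTH lower (-0.69). The genes named kept their calls under all 19 alternatives. The counts did not: leaving out parental replicate 1 or resistant replicate 2 gave 4 rises in place of 7, the 6 falls against resistant became 3 without resistant replicate 2, and the 9 became 4 without parental replicate 2 and 5 without parental replicate 3.

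Of 15 other cytosolic synthetases, 5 rose (33.3%) and 2 fell (13.3%) in resistant cells (median 0.13), beside 19.8% and 19.6% of genes above background. Whether the list differs from the member synthetases was not tested. IARS, for isoleucine, rose by 0.69, from 792 ± 131 to 1270 ± 13.5. From resistant to inhibitor cells 5 fell (33.3%) and 1 rose (6.67%), beside 17.1% and 16.8% of genes above background (list median -0.21). Among the falls were LARS, for leucine (-0.75), IARS (-0.63) and HARS, for histidine (-0.57). In inhibitor against parental cells 3 were lower (20.0%) and 2 higher (13.3%), beside 15.2% and 14.0% of genes above background. CARS (-0.55) and DARS (-0.48) were among the lower ones. The 5 rises became 2 without parental replicate 1 and 3 without resistant replicate 1 or 2, and the 2 falls became 1 without parental replicate 3. The 5 falls against resistant became 3 without resistant replicate 2, and the 1 rise was lost without resistant replicate 1 or 2 or inhibitor replicate 2. The 2 higher genes against parental became 1 without parental replicate 1 or 2.

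A further list of 13 genes belongs to the control of eIF2, upstream of ATF4. It holds eIF2 kinases, subunits of the exchange factor eIF2B, EIF2S1, PPP1R15B, IMPACT and GCN1L1. Of the 13, 3 fell (23.1%) and 2 rose (15.4%) in resistant cells, shares near the 19.6% and 19.8% of genes above background. The kinase genes EIF2AK1 (HRI, the heme-regulated kinase, -0.54) and EIF2AK3 (PERK, the ER kinase, -0.49) fell, and EIF2AK4 (GCN2, the amino acid sensor) rose (0.39). Leaving out any parental array, or resistant replicate 2 or 3, gave 1 rise. In inhibitor against resistant cells 2 rose (15.4%) and 1 fell (7.69%), beside 16.8% and 17.1% of genes above background. There the rises became 1 without resistant replicate 2 or 3 or inhibitor replicate 1, and the falls 0 without resistant replicate 1 or 2 and 2 without inhibitor replicate 2. A list of 12 heat shock genes, which answer to another stress factor, HSF1, is mostly cytosolic but holds the mitochondrial HSPD1 and HSPE1. Of the 12, 3 rose (25%) and 1 fell (8.33%) in resistant cells, beside the same 19.8% and 19.6%. DNAJB1 fell by 0.65, and HSPA8 and HSPH1 rose by 0.52 and 0.42. The 1 fall became 2 without parental replicate 3, resistant replicate 2 or inhibitor replicate 2. In inhibitor against resistant cells 3 rose (25%) and 4 fell (33.3%), HSPA4 (-0.86) among the falls, beside the same 16.8% and 17.1%. On omission of resistant replicate 1 there were 0 rises and 2 falls, of resistant replicate 2 or inhibitor replicate 1, 1 and 2, and of resistant replicate 3, 1 rise.

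Of 27 other genes of ER folding and transport, 8 fell (29.6%) and 2 rose (7.41%) in resistant cells (median -0.17). Among genes above background 19.6% fell and 19.8% rose. AGR2, an ER disulfide isomerase gene of mucus-producing epithelia, fell from 7882 ± 165 to 1089.9 ± 91.3 (-2.86) and was at 4099 ± 506 in inhibitor cells (1.91 above resistant and -0.95 below parental). KDELR3, a receptor gene that returns escaped ER proteins, fell by 1.25 and ERO1L, an ER oxidase gene, by 1.13, while SEC61B, of the translocation channel, rose by 0.74. In inhibitor against resistant cells 8 rose (29.6%) and 2 fell (7.41%), beside 16.8% and 17.1% of genes above background (list median 0.10). KDELR3 (0.55) and ERO1L (0.56) were among the rises and SEC61B (-0.48) among the falls. The 2 rises in resistant cells became 1 without any single parental or resistant array. The 8 rises with the inhibitor became 4 without resistant replicate 1 and 5 without resistant replicate 3, and the 2 falls became 1 without resistant replicate 1 or 2. Among 16 other degradation genes, 5 rose (31.25%) and 3 fell (18.75%) in resistant cells (median 0.03), beside 19.8% and 19.6% of genes above background. SYVN1, which encodes the ligase HRD1 that SEL1L serves, fell by 0.60, and ERLEC1, an ER lectin gene, by 0.52. The 5 rises became 3 without parental replicate 3 or resistant replicate 1 or 2, and the 3 falls became 5 without inhibitor replicate 2. In inhibitor against resistant cells 4 rose (25%) and none fell, beside 16.8% and 17.1% of genes above background. At an unadjusted p under 0.05 there were 6. The 4 became 1 without resistant replicate 1 or 3 or inhibitor replicate 2, and 1 fell without the last of these.

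**Figure D4:**
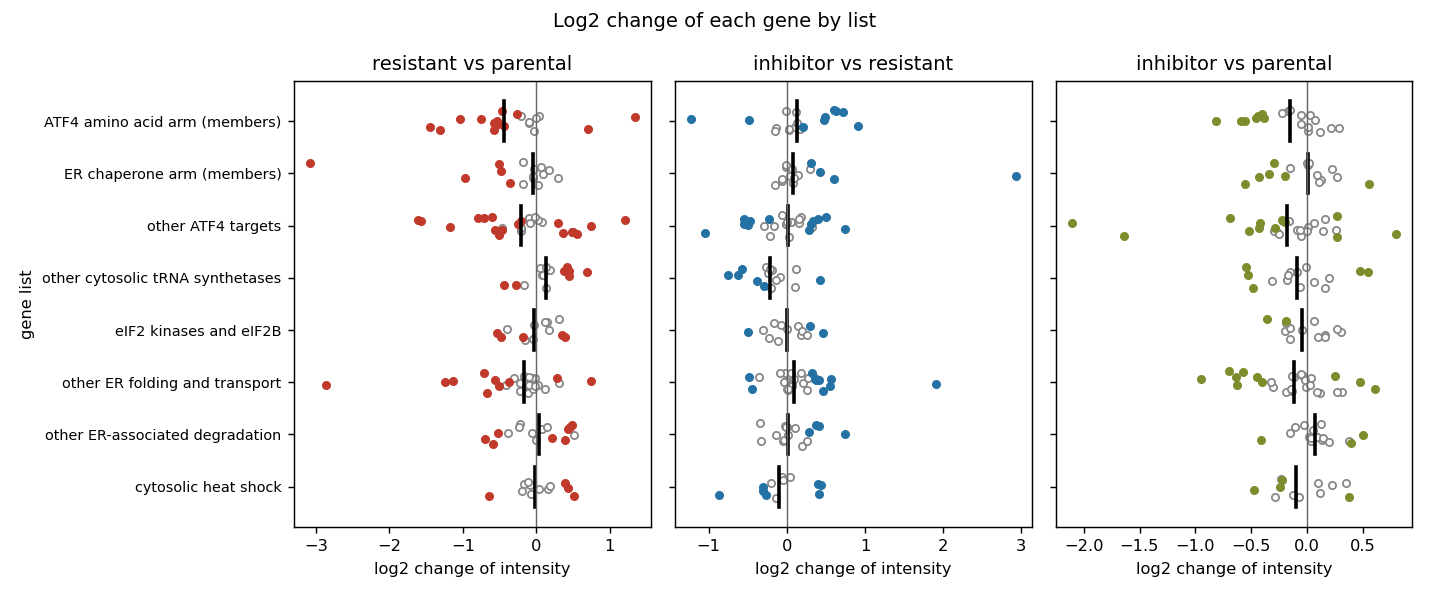
Log2 change of intensity of each gene in the 2 arms and the 6 related lists, in the 3 comparisons; filled points passed at an adjusted p under 0.05, open points did not, and black bars are list medians. In resistant against parental cells the bar of the ATF4 arm is at -0.44 and that of the other synthetases at 0.13.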

How the data were processed

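Total RNA of 9 samples of HCC4006 was labelled as biotinylated cRNA and hybridised to Illumina arrays, per the labels' protocols. The deposited table held 34687 rows of linear intensity. The array medians were 91.1 to 91.3, and the sorted log2 values of an array lay within 0.0178 of their common mean, so the deposited intensities had been quantile-normalized. With a lowest value of 72.65, they still contained background. Scanner and software were not given in the sources used here. The number of arrays limits the precision.

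Rows naming only a UniGene cluster (3270) were left out. Symbols were updated through RefSeq, and for 728 genes with several rows the brightest was kept. All 9 arrays entered 1 limma fit of log2 intensity by group (version 3.58.1, R 4.3.3), with an intensity trend and Benjamini-Hochberg adjustment over 30672 genes. The procedure was tested on simulated data. The members and lists were chosen with earlier results of these data known. All 34 members are named, as are called genes among the 4 with the largest change per related list and comparison, in those comparisons of a list that the text counts, if they kept their call under every alternative. The last condition was added after the values were seen. The alternatives were other scaling, background, filtering, row choice, variance priors, weights, a replicate block, and leaving out each array. Promoters are from RefSeq (GRCh38.p14). Protein sequences were not used here, and 1 marker gene is not reported here.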

Additional observations from a re-analysis of the deposited data

How the results depend on the processing

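Over the 34 members, 3 comparisons and the alternatives run, 1932 values were computed. Of these, 1868 kept their side of the threshold, 41 lost the call and 23 gained one. None that was called in either fit changed sign. The 1868 include uncalled results that did change sign. HSPA5 in inhibitor against resistant cells, for example, was at -0.01 with all arrays and 0.12 without inhibitor replicate 2. Of 102 member results 44 were called, and 34 of these held under every alternative.

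Counts moved as follows. With background subtracted, lower calls in inhibitor against parental cells went from 7 to 3 in the ATF4 arm and from 5 to 3 in the ER arm. Over the 6 related lists this setting took higher calls in resistant against parental cells from 24 to 15, higher calls in inhibitor against resistant cells from 24 to 14, and lower calls in inhibitor against parental cells from 25 to 15. With only the compared groups in the fit, the 7 became 4. In the ATF4 arm 1 gene was higher in inhibitor than in parental cells, where there had been 0, with dim genes left out or without a trend. In the ER arm 1 gene was higher in resistant cells, where there had been 0, with dim genes left out, without a trend, with only the compared groups and with array weights. There 1 was lower in inhibitor than in resistant cells, again from 0, with dim genes left out and with array weights. The cause was not tested. Without single arrays, the ATF4 arm had 2 higher and 10 to 11 lower (resistant against parental), 6 to 9 and 2 (inhibitor against resistant), and 0 to 1 and 2 to 7 (inhibitor against parental). The ER arm had 0 to 1 and 5 to 6, 4 to 5 and 0 to 1, and 1 to 2 and 3 to 5. The related lists had 14 to 27 and 25 to 37, 12 to 25 and 9 to 21, and 9 to 16 and 17 to 28.

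The replicate numbers did not pair the arrays: deviations from group means correlated at -0.198 to 0.0291 between arrays of the same number and at -0.173 to 0.228 between others. With the replicate number as a block, the counts in the ATF4 arm were 2 and 11, 7 and 2, and 0 and 6, and in the ER arm 0 and 5, 4 and 0, and 1 and 4. Against parental cells the block lost PSPH (adjusted p = 0.0541) and DNAJB9 (0.0697) and changed no other call of a member. Genes near background, such as ERN1, SEL1L and DNAJC3, can have understated changes, and ATF4 and HSP90B1 lie near the top of the scale. Background-subtracted intensities were held at a floor of 16, which limits the values of the dimmest genes. CHAC1 and SESN2 lie at background. From resistant to inhibitor cells their changes of 0.13 and 0.11 became 0.004 and 0.07 with background subtracted. Protein levels, eIF2 phosphorylation and XBP1 splicing were not measured.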
